A study of Mus musculus with 6 samples.

Results

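TNF, its receptors and the adaptors and survival proteins that act on them were described in liver endothelial cells (ECs) of young and aged mice. The group held 10 genes, chosen by name for their place in this pathway: the ligand Tnf, the receptors Tnfrsf1a, Tnfrsf1b, Ltbr and Fas, the adaptors Traf1 and Traf2, the ubiquitin ligases Birc2 and Birc3, and the TNF-inducible gene Tnfaip2. All 10 were found among the 24421 gene symbols of the count table, and all 10 were expressed highly enough to be tested. RNA had been prepared from CD31+CD45- cells sorted from the livers of wild-type female C57BL/6J mice, 3 young (10 weeks old) and 3 aged (127, 131 and 136 weeks old), with 50000 cells per extraction. CD31 is an endothelial surface protein and CD45 a protein of all leukocytes, so the sort was set to keep ECs and to leave out blood cells. No transgene or treatment was used in either age group, aged mice with visible tumours or an enlarged liver or spleen had been set aside, and each sample is treated in the methods as an independent one.

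Tumour necrosis factor binds a pair of receptors. TNFR1 (Tnfrsf1a) is made by most cells and carries a death domain, whereas TNFR2 (Tnfrsf1b) has none, is inducible, and recruits TRAF2 directly together with TRAF1 and the ligases cIAP1 (Birc2) and cIAP2 (Birc3). These ligases attach ubiquitin chains at the receptor, which favours NF-kB signalling and survival over caspase activation, and Traf1, Birc3 and Tnfaip2 are themselves known NF-kB targets. In endothelium, TNF is best known for switching on leukocyte adhesion molecules and chemokines.

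Libraries were single-end reads of 75 bases, and the deposited counts summed to between 23001556 and 31651817 per sample. Values are given as CPM (reads scaled to a common library size with TMM factors), for which 3 counts stood at no more than 0.135 CPM. Differences are edgeR log2 fold changes of aged over young, with their standard errors (SE). Pecam1, which encodes CD31, lay between 1366 and 1635 CPM in all 6 samples. Ptprc, which encodes CD45, lay between 1.17 and 1.70 CPM in the young samples and at 7.56, 1.28 and 25.6 CPM in the 127-, 131- and 136-week samples. Lars2 and Rn45s, symbols that collect ribosomal RNA reads, took 4.68 to 5.53% of the counts in 4 libraries (called high-rRNA here) and 1.29% and 0.960% in the remaining pair (called low-rRNA), which was young replicate 3 with the aged sample of 127 weeks. This library difference thus crossed the ages.

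Between young and aged ECs, the receptor Tnfrsf1b was 3.00-fold and the NF-kB target Tnfaip2 3.49-fold higher in aged ECs by mean CPM, the receptors Ltbr and Fas stood at 0.696 and 0.624 of their young mean, and the other 6 genes had overlapping age groups. None of the 10 genes passed the threshold of the edgeR quasi-likelihood test (a Benjamini-Hochberg adjusted p under 0.05 with a change of more than 1 on the log2 scale), nor did any of the 14612 genes tested (0%). At an unadjusted p below 0.05 stood 4 of the 10, against 12.6% of all genes tested: Tnfrsf1b and Tnfaip2 were higher (8.32% of all genes were) and Ltbr and Fas lower (4.32% of all genes were). When a log2 fold change beyond 1 was also asked for, 2 of the 10 were left (6.62% of all genes), both of them higher (5.43%) and none lower (1.19%). The same 4 genes had age groups that did not overlap, in CPM and in FPKM, against 17.9% of all genes tested (9.62% higher and 8.33% lower). The DESeq2 Wald test called Tnfrsf1b (adjusted p = 1.33e-04) and Tnfaip2 (adjusted p = 2.31e-04) out of the 10, against 3.45% of all genes, and limma-voom with sample quality weights called 0 of the 10, against 0.103% of all genes. Both genes stand in the lists of aged-higher genes that the study drew from these samples, so their direction is not independent evidence. With single samples left out in turn, the unadjusted p stayed at or below 0.00338 for Tnfrsf1b and 0.00631 for Tnfaip2 but reached 0.0944 for Ltbr and 0.0603 for Fas. In bulk samples, fewer cells of a type and less RNA per cell cannot be told apart.

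**Figure D1:**
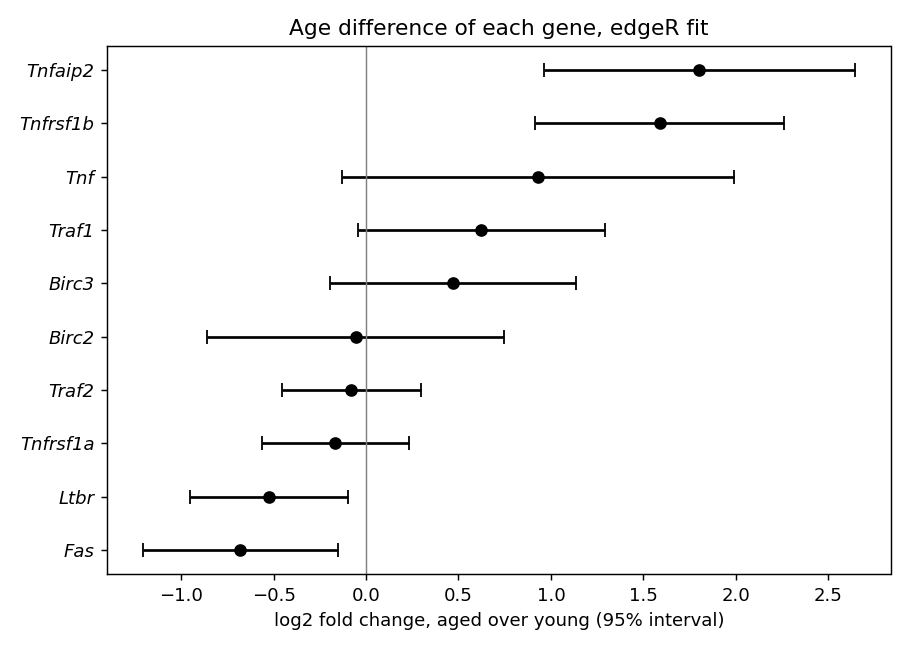
The log2 fold change of aged over young from the edgeR fit (points) with its 95% interval (bars) for each of the 10 genes, ordered by size. The intervals of Tnfaip2 and Tnfrsf1b lie above 0, those of Ltbr and Fas below 0, and those of the other 6 genes include 0.

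The start regions of the 4 genes whose age groups did not overlap are shown because the pair that was higher and the pair that was lower can be compared in them. Each is the window from 250 bases before to 50 bases after the start in the RefSeq promoter table (GRCm38.p6), 5′ to 3′ on the gene's own strand. Capitals mark matches, on either strand, to an NF-kB consensus of 10 letters, to the GAS element TTCNNNGAA bound by STAT proteins, to the AP-1 site TGANTCA, to the GC box GGGCGG or to the TATA box TATAAA.
Tnfrsf1b, chr4:145246821-145247120, minus strand: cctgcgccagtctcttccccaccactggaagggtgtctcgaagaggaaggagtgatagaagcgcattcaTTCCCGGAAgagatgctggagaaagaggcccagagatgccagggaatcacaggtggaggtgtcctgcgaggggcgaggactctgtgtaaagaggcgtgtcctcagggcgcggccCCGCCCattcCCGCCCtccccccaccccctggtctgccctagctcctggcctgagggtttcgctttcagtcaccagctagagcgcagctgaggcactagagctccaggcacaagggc
Tnfaip2, chr12:111442411-111442710, plus strand: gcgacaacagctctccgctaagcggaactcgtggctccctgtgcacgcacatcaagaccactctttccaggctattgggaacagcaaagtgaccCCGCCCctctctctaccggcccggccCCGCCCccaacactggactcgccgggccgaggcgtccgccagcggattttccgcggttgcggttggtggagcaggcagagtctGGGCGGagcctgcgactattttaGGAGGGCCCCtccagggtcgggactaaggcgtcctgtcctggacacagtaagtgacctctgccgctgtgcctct
Ltbr, chr6:125313836-125314135, minus strand: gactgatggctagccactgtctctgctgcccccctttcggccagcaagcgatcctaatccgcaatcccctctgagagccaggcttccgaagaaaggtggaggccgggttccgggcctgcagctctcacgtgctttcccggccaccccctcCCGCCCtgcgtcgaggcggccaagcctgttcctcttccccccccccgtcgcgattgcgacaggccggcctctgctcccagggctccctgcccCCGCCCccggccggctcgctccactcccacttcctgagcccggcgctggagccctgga
Fas, chr19:34290409-34290708, plus strand: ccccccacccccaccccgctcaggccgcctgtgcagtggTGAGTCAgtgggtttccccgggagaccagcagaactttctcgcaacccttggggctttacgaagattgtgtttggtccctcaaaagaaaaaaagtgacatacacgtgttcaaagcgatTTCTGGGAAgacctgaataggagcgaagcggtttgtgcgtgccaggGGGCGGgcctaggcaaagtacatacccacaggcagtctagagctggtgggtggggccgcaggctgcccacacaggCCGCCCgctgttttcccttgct

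All 10 genes matched the promoter table, Birc2 with 2 windows. A gene was counted where any of its windows held a match, whereas the shares over all windows are of single windows. The NF-kB consensus was found in 1 of the 10, at -24 to -15 of Tnfaip2 on the opposite strand, and in 8.46% of all 32851 windows. The GAS element was found at -181 to -173 of Tnfrsf1b and at -93 to -85 of Fas, and also in Tnfrsf1a, against 8.30% of all windows. The AP-1 site was found in Fas alone among the 10 (7.81% of all windows) and the TATA box in Tnf alone (13.6%). The GC box was found in 7 of the 10, among them all 4 windows printed, against 35.7% of all windows, and the GC content of these 4 ran from 59.0% (Fas) to 70.0% (Ltbr) with a median over all windows of 52.7%. No matches overlapped in the windows printed, and no motif was common to the higher pair and missing from the lower pair. A match is a string of letters and was not tested for binding.

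Tnf, the ligand (chr17:35336326-35338952, minus strand, NCBIM37, the build of the files), lies between the lymphotoxin genes Ltb and Lta. Its level was 7.03, 5.28 and 10.9 CPM in young replicates 1, 2 and 3 and 6.53, 19.2 and 18.5 CPM in the 127-, 131- and 136-week samples. The 131- and 136-week samples stood above every young sample, and the 127-week sample lay within the young range, so the groups overlapped. Tnf thus had a log2 fold change of 0.93 (SE 0.45, 95% interval -0.13 to 1.99, adjusted p = 0.456). Within the 4 high-rRNA libraries the aged samples were higher by 1.48 on the log2(CPM + 1) scale, and within the low-rRNA pair the aged sample was lower (-0.65), so the direction did not hold in both.

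**Figure D2:**
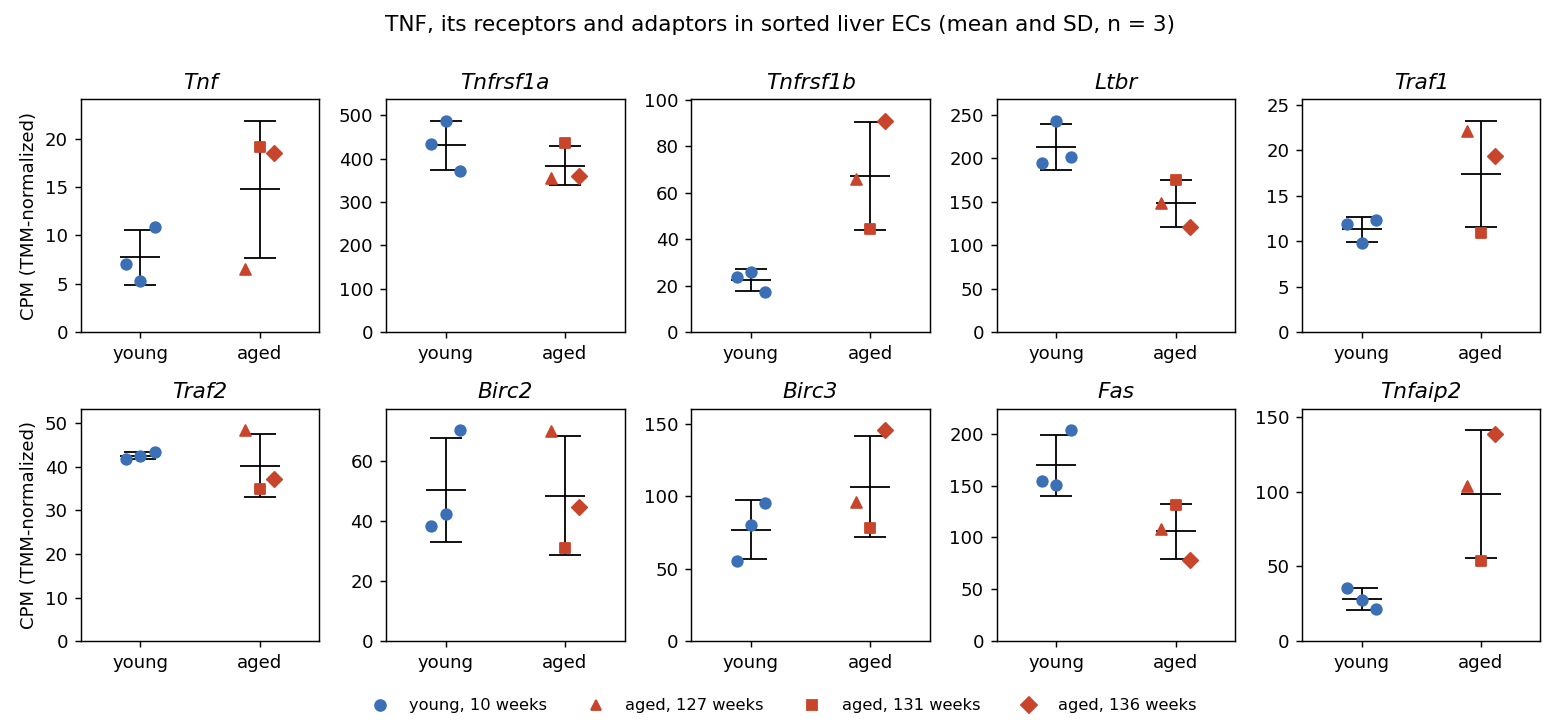
TMM-normalized CPM of the 10 genes in each sample, with young samples as circles and the 127-, 131- and 136-week samples as a triangle, a square and a diamond; horizontal lines and bars give the mean and the SD (n = 3). The aged symbols lie above all young symbols for Tnfrsf1b and Tnfaip2 and below all of them for Ltbr and Fas.

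TNFR1, the widely expressed receptor with a death domain, showed no age difference larger than the spread. Tnfrsf1a (chr6:125299380-125312502, plus strand) stood at 433, 487 and 372 CPM in young replicates 1 to 3 and at 355, 435 and 361 CPM in the 127-, 131- and 136-week samples. The groups overlapped, with a log2 fold change of -0.17 (SE 0.17, 95% interval -0.56 to 0.23, adjusted p = 0.751).

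TNFR2, the inducible receptor, was higher in each aged sample than in each young one. Tnfrsf1b (chr4:144803366-144836773, minus strand) had 642, 575 and 545 counts in young replicates 1 to 3 and 1919, 1140 and 2242 counts in the 127-, 131- and 136-week samples. In CPM these were 23.9, 25.9 and 17.2 in the young and 66.0, 44.3 and 91.0 in the aged samples. The lowest aged value, at 131 weeks, was thus above the highest young value, and the 136-week value was the highest. The log2 fold change was 1.59 (SE 0.29, 95% interval 0.91 to 2.26, unadjusted p = 7.64e-04), with an adjusted p of 0.193 in the edgeR quasi-likelihood test. The difference was 1.32 within the high-rRNA and 1.88 within the low-rRNA libraries (log2(CPM + 1) scale), so the direction held in both.

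Since both receptors bind the same ligand, their ratio was taken within each sample, from FPKM values (counts scaled for transcript length and depth), which puts genes on a common scale. The Tnfrsf1b transcript stood at 0.0229, 0.0221 and 0.0191 of the Tnfrsf1a level in young replicates 1 to 3. It stood at 0.0767, 0.0422 and 0.104 in the 127-, 131- and 136-week samples. The ratio was higher in 3 of 3 aged samples than in any young sample, which gave p = 0.1 in a two-sided exact permutation test, where no lower value can be had with 3 samples against 3. Tnfrsf1a remained the more abundant receptor transcript in each of the 6 samples, and receptor protein was not measured here.

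The lymphotoxin beta receptor, which drives the non-canonical NF-kB pathway, was lower in aged ECs. Ltbr (chr6:125256589-125263903, minus strand, with Scnn1a between it and Tnfrsf1a) stood at 195, 244 and 201 CPM in young replicates 1 to 3 and at 149, 175 and 121 CPM in the 127-, 131- and 136-week samples. Every aged sample lay below every young sample, the 131-week sample closest to them, and the log2 fold change was -0.52 (SE 0.18, 95% interval -0.95 to -0.10, adjusted p = 0.332). Transcripts of its ligands were rare. Lta had 0 to 11 counts per sample, Tnfsf14 lay at or below 0.344 CPM in all 6 samples, and both were too low to be tested, while Ltb lay between 0.126 and 2.52 CPM with overlapping groups.

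Fas, the death receptor for Fas ligand, was also lower in each aged sample. Fas (chr19:34365149-34402260, plus strand) stood at 155, 151 and 204 CPM in young replicates 1 to 3 and at 109, 131 and 77.9 CPM in the 127-, 131- and 136-week samples. The groups did not overlap, with the 136-week sample lowest and young replicate 3 highest, and the log2 fold change was -0.68 (SE 0.23, 95% interval -1.21 to -0.15, adjusted p = 0.319). In the high-rRNA and low-rRNA libraries taken apart, the difference was -0.59 and -0.90 for Fas and -0.58 and -0.43 for Ltbr (log2(CPM + 1) scale). Fas ligand had 0 counts in all 3 young samples and 23, 1 and 29 counts in the 127-, 131- and 136-week samples. Taken against a floor of 3 counts per young library, its aged mean was at least 5.87-fold higher, an estimate that rests on the 127- and 136-week samples. Fasl reached the minimum of 0.5 CPM for testing in aged samples only. Summed T and NK cell markers (described below) were 6.77, 1.13 and 29.8 CPM in the 127-, 131- and 136-week samples. Whether the Fasl counts came from leukocytes was not tested.

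TRAF1, an adaptor without a RING domain that is induced by NF-kB, overlapped between ages. Traf1 (chr2:34797270-34817292, minus strand) stood at 11.8, 9.75 and 12.4 CPM in young replicates 1 to 3 and at 22.1, 10.9 and 19.3 CPM in the 127-, 131- and 136-week samples. The 127- and 136-week samples were above all young samples and the 131-week sample was among them, with a log2 fold change of 0.62 (SE 0.29, 95% interval -0.05 to 1.29, adjusted p = 0.428). Without the 131-week sample its log2 fold change was 0.87 (edgeR unadjusted p = 0.00491, adjusted p = 0.119). It was 0.42 without the 127-week sample (unadjusted p = 0.206) and 0.54 without the 136-week sample (unadjusted p = 0.140). With the 131-week sample as the only aged one it was -0.05, and with a term for leukocyte markers (described below) 0.28 (unadjusted p = 0.402).

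TRAF2, the adaptor that TNFR2 binds directly and that carries the cIAPs, was nearly level in the young mice. Traf2 (chr2:25373502-25402460, minus strand) stood at 41.8, 42.4 and 43.3 CPM in young replicates 1 to 3 and at 48.4, 35.0 and 37.3 CPM in the 127-, 131- and 136-week samples. The aged samples lay on both sides of the young ones, and the log2 fold change was -0.08 (SE 0.16, 95% interval -0.46 to 0.30, adjusted p = 0.898). Gm13433 overlaps this gene on the other strand, and since no source used here says whether counting was strand-specific, reads of both could share the Traf2 count. The Traf1 to Traf2 ratio of FPKM values was 0.364, 0.286 and 0.362 in young replicates 1 to 3 and 0.534, 0.381 and 0.624 in the 127-, 131- and 136-week samples. It was higher in 3 of 3 aged samples (p = 0.1 in the same exact permutation test).

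The ligase cIAP1 overlapped between ages and was split by library. Birc2 (chr9:7818236-7835255, minus strand) stood at 38.4, 42.4 and 70.3 CPM in young replicates 1 to 3 and at 69.8, 31.0 and 44.6 CPM in the 127-, 131- and 136-week samples. The highest values were those of young replicate 3 and the 127-week sample, which form the low-rRNA pair, and the other 4 samples lay between 31.0 and 44.6 CPM. Birc2 had a log2 fold change of -0.06 (SE 0.34, 95% interval -0.86 to 0.75, adjusted p = 0.972), and in the high-rRNA and low-rRNA libraries taken apart the difference was -0.11 and -0.011 on the log2(CPM + 1) scale.

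Its neighbour cIAP2 was highest in the oldest sample. Birc3 (chr9:7848699-7873186, minus strand, with C330006D17Rik between it and Birc2) stood at 55.6, 80.1 and 95.8 CPM in young replicates 1 to 3 and at 96.1, 78.4 and 146 CPM in the 127-, 131- and 136-week samples. The groups overlapped, since the 131-week sample lay within the young range and the 127-week sample was level with young replicate 3, and the log2 fold change was 0.47 (SE 0.28, 95% interval -0.20 to 1.14, adjusted p = 0.556). The Birc3 to Birc2 ratio of FPKM values was 1.75, 2.29 and 1.65 in young replicates 1 to 3 and 1.68, 3.05 and 3.94 in the 127-, 131- and 136-week samples. These ranges overlapped as well (two-sided exact permutation test, p = 0.3). The paralogs shared 40 windows of 75 bases, which were 1.31% of the Birc2 and 0.866% of the Birc3 transcript windows, so few reads could be split between them. None of the other 8 genes shared such a window with another gene.

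Tnfaip2, first known for its induction by TNF in endothelium, had the largest log2 fold change of the 10. It (chr12:112680680-112693229, plus strand) had 956, 618 and 676 counts in young replicates 1 to 3 and 3018, 1377 and 3411 counts in the 127-, 131- and 136-week samples. In CPM these were 35.6, 27.9 and 21.3 in the young and 104, 53.6 and 138 in the aged samples. The order of the aged samples was that seen for Tnfrsf1b, with 136 weeks highest and 131 weeks lowest but above every young sample. Its log2 fold change was 1.80 (SE 0.36, 95% interval 0.96 to 2.64, unadjusted p = 0.00133), with an adjusted p of 0.193 in the edgeR quasi-likelihood test. Taken apart, the high-rRNA and low-rRNA libraries gave differences of 1.42 and 2.23 on the log2(CPM + 1) scale.

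Likeness between genes was measured as the root mean square difference of centred log2(CPM + 1) profiles over the 6 samples, among 10224 genes with a mean of at least 5 CPM. The profile nearest to Tnfrsf1b was that of Cadm1, a cell adhesion gene (0.129), followed by Prkar1b, a regulatory subunit of protein kinase A (0.145), and Socs2, an inhibitor of cytokine signalling (0.147). Tnfaip2 came 12th for Tnfrsf1b, at 0.201, and Tnfrsf1b came 6th for Tnfaip2. The profile nearest to Tnfaip2 was that of Nfil3, a transcription factor (0.160), followed by Scn3b, a sodium channel subunit (0.181), and Socs2 (0.184). All of these genes stand in the lists that the study drew from the same samples.

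Compared per transcript length, 3 of the 4 receptors were the most abundant of the 10 genes in young ECs, and the remaining receptor, Tnfrsf1b, was the least abundant. Mean FPKM in the young samples was 214 ± 26.1 for Tnfrsf1a, 135 ± 22.3 for Fas and 109 ± 13.3 for Ltbr (SD, n = 3), and the young ranges of Fas (119 to 161) and Ltbr (99.2 to 124) overlapped. Birc3 followed at 28.4 ± 7.63, then Birc2 at 15.3 ± 5.44 and Traf2 at 14.5 ± 0.447, each overlapping its neighbour in range. Tnfaip2 stood at 8.06 ± 1.97, with a range that reached into that of Tnf, and Tnf (5.20 ± 1.99), Traf1 (4.89 ± 0.691) and Tnfrsf1b (4.60 ± 0.897) overlapped at the low end. In aged ECs, the first 4 places were the same, Tnfaip2 moved from place 7 to 5 with 28.2 ± 12.2 FPKM and Tnfrsf1b from place 10 to 7 with 13.7 ± 4.76 FPKM. In the aged order, Fas (67.2 to 110) and Ltbr (61.4 to 89.1) again overlapped in range, as did all neighbours from Birc3 downwards.

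**Figure D3:**
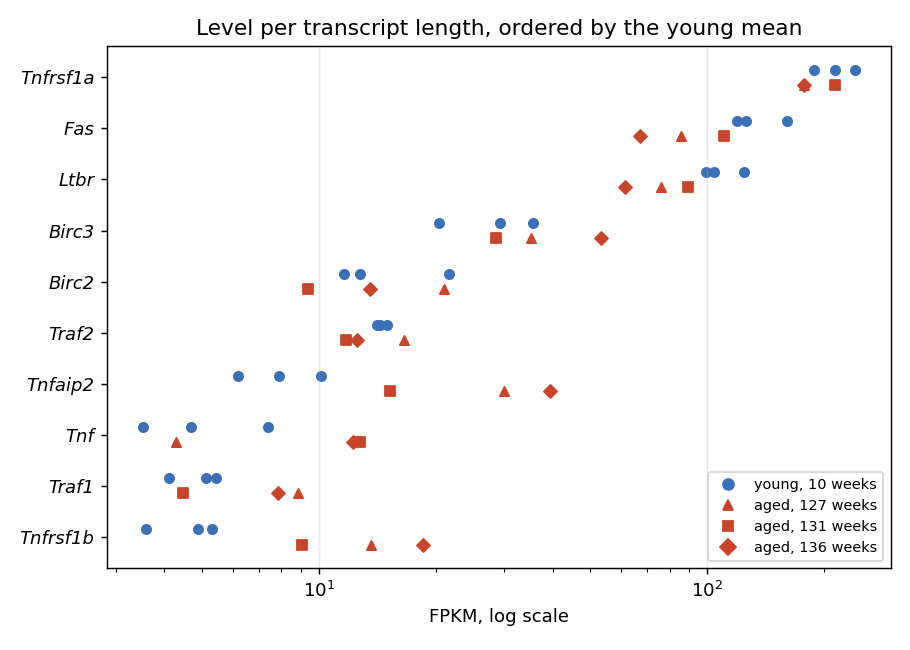
FPKM of each gene on a log axis, with 1 symbol per sample (young samples as blue circles, aged samples as red symbols), ordered by the young mean. Tnfrsf1a, Fas and Ltbr lie at 61.4 FPKM or more in every sample, and Tnfrsf1b and Tnfaip2 are the genes whose aged symbols lie entirely to the right of the young ones.

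Leukocyte transcripts differed between the aged samples, and their values stand beside these results. Summed over the 6 pan-leukocyte markers found of 7 listed, they came to 24.9, 14.9 and 17.7 CPM in young replicates 1 to 3 and to 51.0, 16.5 and 197 CPM in the 127-, 131- and 136-week samples (two-sided exact permutation test, p = 0.3). The log2 fold change was positive for 6 of 6 of these markers, the median being 2.26, and 1 of them had non-overlapping groups. In the 131-week sample 5 of the 6 lay within or below the young range, and Coro1a lay above it (5.72 against at most 5.54 CPM). Myeloid markers (31.8 to 82.4 CPM in the young and 131-week samples) reached 194 and 504 CPM in the 127- and 136-week samples, and T and NK cell markers (0.978 to 1.90 CPM) 6.77 and 29.8 CPM. In the 131-week sample 6 of the 7 T and NK cell markers found lay within or below the young range. Among them Cd3d and Cd3g were at 0 counts, as each was in at least 1 young sample. Cd3e lay above the young range, at the floor of 3 counts (0.117 against at most 0.0744 CPM).

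With 5 of 6 leukocyte markers within or below the young range, the 131-week sample had Tnfrsf1b at 44.3 CPM, against at most 25.9 in the young, and Tnfaip2 at 53.6 CPM, against at most 35.6. As the only aged sample it gave log2 fold changes of 0.99 for Tnfrsf1b (unadjusted p = 0.0152) and 0.92 for Tnfaip2 (unadjusted p = 0.0281), of 1.31 for Tnf (unadjusted p = 0.0239), and of -0.28 for Ltbr and -0.37 for Fas, with edgeR adjusted p-values of 0.723 or more for all 5. This fit assumes that the lone aged sample varies as the young samples do. With the mean of the pan-leukocyte markers as a further term, the log2 fold change was 1.11 for Tnfrsf1b (unadjusted p = 0.00243), 1.15 for Tnfaip2 (unadjusted p = 0.00310), -0.30 for Ltbr (unadjusted p = 0.128) and -0.40 for Fas (unadjusted p = 0.0949). How much of each difference came from leukocytes among the sorted cells was not tested.

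**Figure D4:**
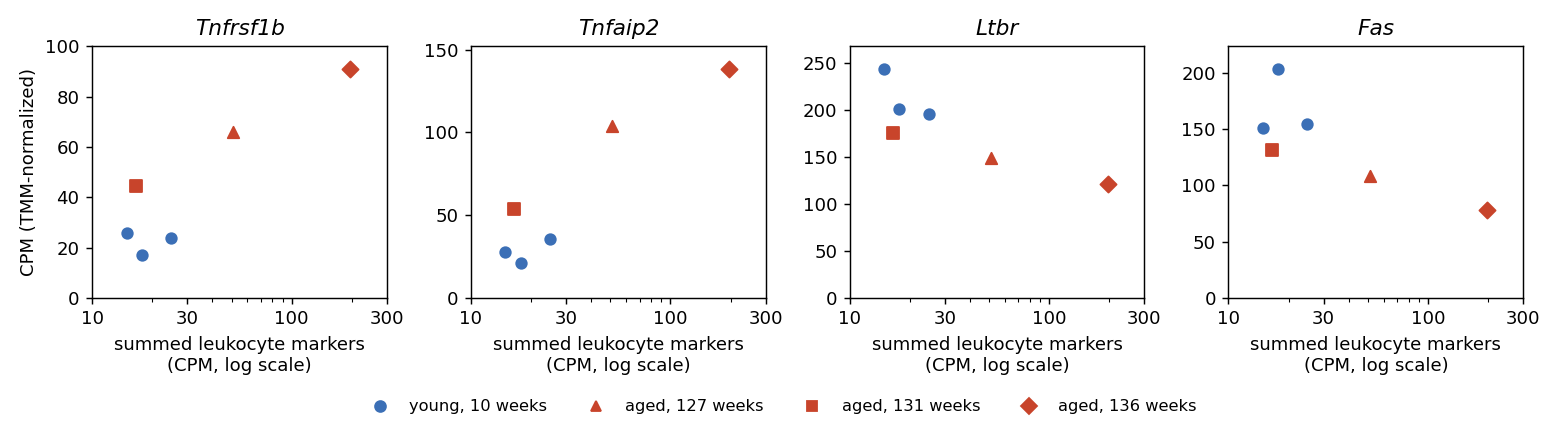
CPM of Tnfrsf1b, Tnfaip2, Ltbr and Fas (vertical axes, from 0) against the summed CPM of the 6 pan-leukocyte markers (horizontal log axis) in each of the 6 samples. The 131-week square stands at a marker sum of 16.5 CPM, within the young range, but above all young circles for Tnfrsf1b and Tnfaip2 and below them for Ltbr and Fas.

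The sum of 10 endothelial markers was lower in aged ECs, though not every marker was. Summed CPM was 18580 to 20673 in the young and 9583 to 14445 in the aged samples (p = 0.1 by exact permutation, the lowest attainable). Of the 10, 6 were non-overlapping and lower, against 8.33% of all genes tested. Among them were Kdr (log2 fold change -0.65) and the sinusoidal genes Stab2 (-1.70), Clec4g (-1.46) and Oit3 (-1.31). Cdh5 (-0.21) and Tie1 (-0.16) overlapped between ages, and Pecam1 was level (0.01). Stab2, Clec4g and Oit3 were lowest in the 127- and 136-week samples, as were Ltbr and Fas, but this order was not general among the markers. Lyve1, another sinusoidal marker, was highest at 136 weeks and lowest at 131 weeks (391 to 670 CPM in the young samples and 660, 223 and 1506 CPM at 127, 131 and 136 weeks). Cdh5 was highest at 136 weeks and lowest at 127 weeks (241, 404 and 461 CPM at 127, 131 and 136 weeks). Hepatocyte markers summed to 86.2 to 141 CPM in the young and 61.0 to 77.2 CPM in the aged samples (p = 0.1 in the same exact test), and stellate and mural markers to 52.7 to 241 and 94.9 to 182 CPM (p = 0.7). Whether a shift in the kinds of ECs sorted had a part in the Ltbr and Fas differences was not tested.

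Around these 10 genes, 113 genes of 7 lists by role were read, the ligand list holding Tnf itself as well. None was called by edgeR in any list (0%, as for all genes). DESeq2 called 20, against 3.45% of all genes tested, and limma-voom 1, against 0.103%. Among the 20, Fasl, Tnfsf8, Tnfsf13b and Tnfrsf9 reached the minimum of 0.5 CPM in aged samples only, so they could be called only as higher in aged ECs. Unadjusted counts are therefore given beside those of all genes tested (8.32% higher and 4.32% lower at an unadjusted p below 0.05, median log2 fold change 0.01). With the 131-week sample as the only aged one, 3.62% of the genes tested were higher and 2.05% lower at an unadjusted p below 0.05. In that fit, the list genes higher by this rule numbered 2 ligands, 2 other receptors, 2 of the receptor complex, 3 survival brakes, 0 of the death arm, 1 of receptor shedding and 8 TNF-inducible targets, and 0 were lower in any list.

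Of 18 TNF superfamily ligands, 11 were tested, and 4 were higher in aged ECs at an unadjusted p below 0.05 and 0 lower. All 4 were rare transcripts, and 3 of them (Fasl, Tnfsf8 and Tnfsf13b) reached the minimum of 0.5 CPM in aged samples only, so that they could enter the test only by being higher in aged ECs. Of the 8 ligands that reached it at both ages, 1 was higher, Eda. Tnfsf13b, which encodes the B cell survival factor BAFF, stood at 0.112, 0.226 and 0.158 CPM in young replicates 1 to 3 and at 3.06, 1.32 and 1.83 CPM in the 127-, 131- and 136-week samples (log2 fold change 3.63, SE 0.61, adjusted p = 0.184 by edgeR and 6.60e-05 by DESeq2). Eda, the ectodysplasin ligand, stood at 0.158 to 0.707 CPM in the young and 1.79 to 2.15 CPM in the aged samples (log2 fold change 2.52, SE 0.69, and 3.55 without young replicate 1, the highest of the young). The abundant ligand gene was Tnfsf10, which encodes TRAIL, at 176 to 190 CPM in the young and 153 to 176 CPM in the aged samples (log2 fold change -0.15, SE 0.13, adjusted p = 0.704). Tnfsf12, which encodes TWEAK, had overlapping groups (log2 fold change -0.40, SE 0.53).

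Of 24 other TNF superfamily receptors, 20 were tested, and 4 were higher at an unadjusted p below 0.05 and 0 lower. Among the 17 that reached 0.5 CPM at both ages, 3 were higher. Tnfrsf12a, the TWEAK receptor Fn14, stood at 8.86, 11.9 and 11.0 CPM in young replicates 1 to 3 and at 22.3, 19.4 and 40.7 CPM in the 127-, 131- and 136-week samples. The groups did not overlap (log2 fold change 1.38, SE 0.31, adjusted p = 0.235 by edgeR and 0.00436 by DESeq2). Tnfrsf10b, the mouse TRAIL receptor, was at 6.14 to 7.26 CPM in the young and 11.7 to 33.5 CPM in the aged samples (log2 fold change 1.53, SE 0.42), and Tnfrsf9, which encodes the costimulatory receptor 4-1BB, at 0.158 to 0.298 and 0.817 to 4.79 CPM (log2 fold change 3.49, SE 0.80, and 2.54 without the 136-week sample). Tnfrsf9 reached 0.5 CPM in aged samples only, so that it could enter the test only by being higher there. Tnfrsf19 was the other gene of the 4. On the lower side, Tnfrsf26 (log2 fold change -0.35, SE 0.21) and the TRAIL decoy receptor Tnfrsf22 (log2 fold change -0.22, SE 0.17) had the smallest p, both with overlapping groups. Tnfrsf10b and Tnfrsf12a, with Tnfrsf18 of the same list, are in the study's own lists.

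**Figure D5:**
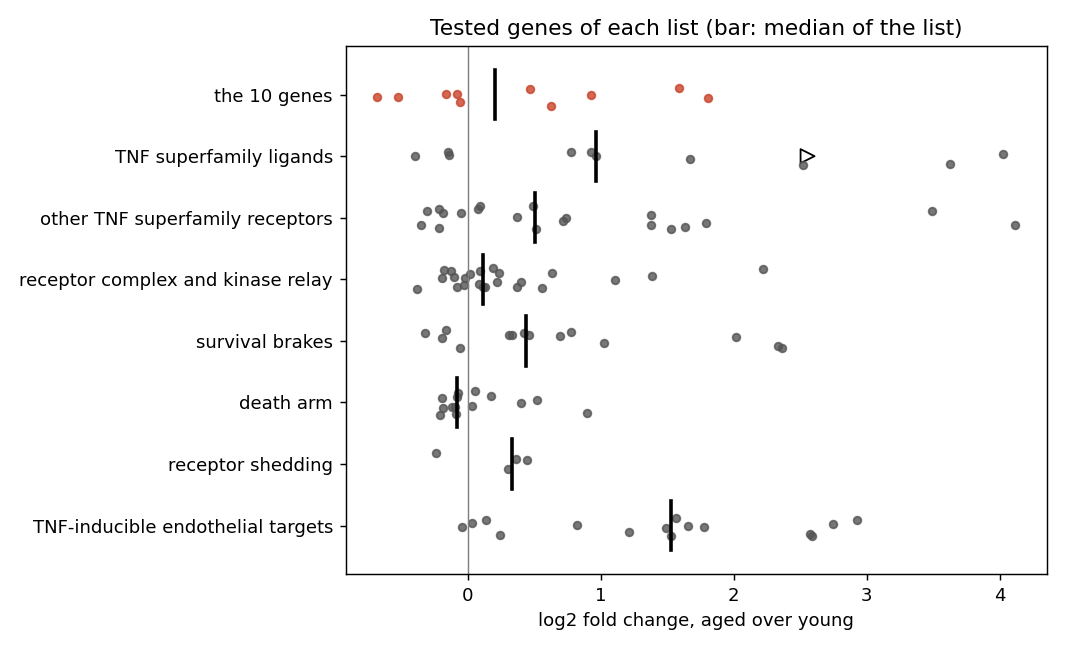
The log2 fold change of aged over young for each tested gene of the 10 (red) and of 7 lists by role (grey), with a black bar at each median. The open triangle is Fasl, drawn at its lower bound because all young samples had 0 counts, and is 1 of 3 ligands that, like 3 other receptors and 1 survival brake, reached the minimum of 0.5 CPM in aged samples only; the medians are 0.21 for the 10 genes, 0.96 for ligands, 0.50 for other receptors, 0.12 for the receptor complex, 0.44 for survival brakes, -0.08 for the death arm, 0.33 for shedding and 1.53 for TNF-inducible targets.

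All 23 genes of the receptor complex and kinase relay were tested, 3 were higher at an unadjusted p below 0.05 and 0 lower, and their median log2 fold change was 0.12. Without the 136-week sample 1 gene, Map3k5, was higher at an unadjusted p below 0.05 and 0 were lower, against 5.1% and 2.68% of all genes tested in that fit. Map3k5, which encodes the stress kinase ASK1 that binds TRAF2, stood at 3.54, 4.15 and 2.87 CPM in young replicates 1 to 3 and at 9.21, 8.36 and 10.0 CPM in the 127-, 131- and 136-week samples (log2 fold change 1.39, SE 0.25, adjusted p = 0.193 by edgeR and 1.05e-04 by DESeq2). The 3 aged values lay close together and above every young value. Traf4 stood at 1.64 to 3.13 and 4.40 to 6.94 CPM (log2 fold change 1.11, SE 0.37), and Ikbke, an IKK-related kinase, was higher at 127 and 136 weeks alone. Tradd, the adaptor of TNFR1, was lower in 3 of 3 aged samples (16.0 to 21.2 against 11.0 to 15.7 CPM, log2 fold change -0.38, SE 0.21, adjusted p = 0.522), and Rbck1, a subunit of the linear ubiquitin ligase, had a log2 fold change of -0.18 (SE 0.14).

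Of 14 genes listed as survival brakes, all were tested (1, Tnip3, reached 0.5 CPM in aged samples only), 4 were higher at an unadjusted p below 0.05 and 0 lower, and the median log2 fold change was 0.44. Tnfaip3, which encodes the ubiquitin-editing inhibitor A20, stood at 59.9, 83.0 and 99.9 CPM in young replicates 1 to 3 and at 263, 237 and 721 CPM in the 127-, 131- and 136-week samples. The groups did not overlap, and the 136-week sample was far above the others (log2 fold change 2.33, SE 0.46, and 1.63 without that sample, adjusted p = 0.193 by edgeR and 2.47e-05 by DESeq2). Ier3, an early response gene, was at 411 to 577 CPM in the young and 706 to 1151 CPM in the aged samples (log2 fold change 1.02, SE 0.24). The BCL2 family members Mcl1 and Bcl2a1b were the other genes of the 4. Bcl2a1b was rare and its groups overlapped (0.271 to 0.568 CPM in the young and 1.03, 0.506 and 3.29 CPM in the 127-, 131- and 136-week samples). Without the 136-week sample, 3 were higher at an unadjusted p below 0.05 (Tnfaip3, Ier3 and Mcl1) and 1 lower (Bcl2l1), against 5.1% and 2.68% of all genes tested in that fit. Bcl2l1, which encodes BCL-XL (log2 fold change -0.32, SE 0.17), and Xiap (log2 fold change -0.17, SE 0.17) had overlapping groups. Tnfaip3 and Ier3 are also in the study's own lists.

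All 14 genes of the death arm were tested, 1 was higher at an unadjusted p below 0.05 and 0 lower, and the median log2 fold change was -0.08. That gene was Bid, the BH3-only protein cut by caspase-8, at 11.2 to 14.5 CPM in the young and 17.3 to 18.4 CPM in the aged samples (log2 fold change 0.52, SE 0.18, adjusted p = 0.332). Casp8, the initiator caspase below Fas and TNFR1, was at 156 to 161 CPM in the young and 126 to 143 CPM in the aged samples, which did not overlap (log2 fold change -0.21, SE 0.13, adjusted p = 0.554). Daxx (log2 fold change 0.89, SE 0.44) and Casp6 (log2 fold change -0.12, SE 0.15) had overlapping groups.

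Receptor shedding depends on the protease ADAM17, its iRhom partners and its inhibitor TIMP3, and none of these 4 genes had an unadjusted p below 0.05. Adam17 was lower in 3 of 3 aged samples, at 102 to 121 CPM in the young and 84.4 to 98.4 CPM in the aged (log2 fold change -0.24, SE 0.14, adjusted p = 0.541). Rhbdf2, which encodes iRhom2 (log2 fold change 0.45, SE 0.28), and Timp3 (log2 fold change 0.36, SE 0.27) overlapped between ages.

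Genes that TNF is known to induce in endothelium stood mostly above their young level in aged ECs, none past the edgeR threshold. Of 16, 15 were tested, 11 were higher at an unadjusted p below 0.05 and 0 lower, and the median log2 fold change was 1.53. Sele, the leukocyte adhesion gene E-selectin, stood at 40.8, 47.8 and 84.4 CPM in young replicates 1 to 3 and at 333, 270 and 439 CPM in the 127-, 131- and 136-week samples (log2 fold change 2.59, SE 0.33, adjusted p = 0.137 by edgeR and 1.01e-11 by DESeq2). Vcam1 stood at 840 to 951 CPM in the young and 1630 to 2632 CPM in the aged samples (log2 fold change 1.21, SE 0.22). The others of the 11 were Icam1, Ccl2, Cxcl1, Cxcl2, Cxcl10, Cx3cl1, Il6, Irf1 and Nfkbia, and Nfkb1 was level (log2 fold change -0.04, SE 0.12). The study's own lists hold 7 of the 16, so the count is not independent evidence of direction.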

How the data were processed

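RNA sequencing of CD31+CD45- liver ECs from 3 young and 3 aged mice was used. Base calling was done by the authors with CASAVA 1.8.2 and mapping to mm9 with TopHat2 2.1.0, and raw read counts per gene symbol were deposited without normalization. A second deposited table holds the authors' FPKM values (Cuffnorm 2.2.1), scaled for transcript length and between samples. The counting program and its use of strand are not given in the sources used here. Since reads lacking molecular identifiers may repeat a molecule, the floor of 3 counts covers counting error only, at 23001556 to 31651817 counts per sample. The count table holds 27 date-like gene names, none of them used.

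Genes reaching a CPM of 0.5 in 1 sample or more (14612 of 24421) were scaled by TMM and tested with the quasi-likelihood test of edgeR 4.0.16 (R 4.3.3) over all 6 samples with age as the only term, with Benjamini-Hochberg adjustment, and called where the adjusted p was under 0.05 and the change more than 1 on the log2 scale. The SE is the fitted log2 change over the root of F. DESeq2 1.42.0, limma 3.58.1 (voom, and log2 of FPKM + 0.1 or + 1), other scalings and filters, covariates and samples left out served as alternatives, and the fit with the 131-week sample as the only aged one was added after the data were seen. For single values, exact permutation tests (two-sided) were used, in which 3 against 3 cannot go below 0.1. The edgeR, DESeq2 and limma fits were also run on simulated counts with planted changes. That simulation does not bear on why the fits called different numbers of genes here.

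The genes and lists were chosen with earlier results of these data known. Named are the 10 genes, the 2 genes of each list with the smallest p in each direction, those needed to say what a count holds, the 3 profiles nearest to Tnfrsf1b and to Tnfaip2, and markers. A further marker list is not reported here. Other genes beside these (Lta, Ltb and Tnfsf14 beside Ltbr) were chosen after their values were seen. Gene positions are GENCODE spans on NCBIM37, and promoter windows come from RefSeq on GRCm38.p6. The samples are independent according to the methods, but no label ties a sample to an animal, so p-values measure the spread between samples.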

Additional observations from a re-analysis of the deposited data

How the results depend on the processing

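Across 19 alternative settings, Tnf, Tnfrsf1b, Ltbr, Birc3, Fas and Tnfaip2 kept their direction in all 19, Tnfrsf1a, Traf1 and Traf2 in 18 and Birc2 in 15. The lowest and highest log2 fold changes over these settings were 0.99 and 1.81 for Tnfrsf1b and 0.92 and 2.10 for Tnfaip2, and leaving out any single sample gave 1.31 to 1.81 and 1.48 to 2.10, with unadjusted p-values of at most 0.00338 and 0.00631. Of the 10 genes, 2 were called with the DESeq2 Wald test and 0 with any other setting.

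Over all genes, 0 were called by edgeR, 504 by the DESeq2 Wald test, 15 by limma-voom with quality weights, 4 without a low-count filter, 2 by limma on log2(FPKM + 0.1), 2 with a library cluster term, 15 with a pan-leukocyte term, and 0 to 1 with each sample left out. Of the list genes, 20 were called by DESeq2 and 1 by limma-voom. With an unadjusted p under 0.05 and a log2 change above 1, 793 genes were higher with all samples, 245 by limma on log2(FPKM + 1), 228 without its filter, 320 with the pan-leukocyte term, 288 without the 127- and 136-week samples, and 393 to 1123 with each sample left out (lowest without the 136-week sample). The lower genes numbered 174, then 93 and 84 by limma on log2(FPKM + 1) with and without its filter, and 131 to 285 with each sample left out (highest without the 131-week sample). List genes higher by the same rule numbered 24, then 15 in both of these FPKM fits, 15 with the pan-leukocyte term, 11 without the 127- and 136-week samples, and 15 to 28 with each sample left out (lowest without the 136-week sample). Without the 127- and 136-week samples, 1 of the 10 genes was higher by this rule in place of 2. The cause of these shifts was not tested.

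Directions turned as follows, none past the threshold. Without the 127- and 136-week samples the log2 fold change was 0.018 for Tnfrsf1a, -0.054 for Traf1, 0.31 for Tnfsf12, 0.028 for Xiap, 0.036 for Casp6 and -0.15 for Rhbdf2. Rhbdf2 was at -0.074 with the pan-leukocyte term. Birc2 was at 0.15 by limma-voom. With each sample left out, Traf2 ran from -0.23 to 0.012 and Nfkb1 from -0.088 to 0.0042, both turning positive without the 131-week sample, and Birc2 from -0.41 to 0.26, positive without young replicate 3 (0.26), the 131-week sample (0.18) or the 136-week sample (0.0022). The aged minus young difference of summed stellate and mural markers ran from -68.7 to 25.4 CPM with each sample left out, turning positive without young replicate 1. No paired analysis was made, since the labels give no pairing of young with aged samples. With 3 samples a group, adjusted p-values near 0.19 for Tnfrsf1b and Tnfaip2 leave them uncalled by edgeR. Counts were few for Fasl (0 to 29 per sample), Lta (0 to 11) and Tnfsf14 (0 to 10).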
